A study of Mus musculus with 12 samples.

Results

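The annexins and the S100 proteins that pair with them were followed on 12 arrays, each of the kidney RNA of 1 mouse killed when it was 6 months old. Members were chosen by symbol: 6 annexin genes (Anxa1, Anxa2, Anxa3, Anxa4, Anxa5 and Anxa13) and 4 S100 genes (S100a4, S100a6, S100a10 and S100a11), 10 genes of the 16480 tested. Each gene was read through a probe set annotated to that symbol alone, the one with the highest mean where there were several. All 10 passed the filter on dim genes, each above the 25th percentile of every one of the 12 arrays. OVE-D6 mice were diabetic and homozygous for the D6 knockout allele, OVE mice were diabetic with wild-type D6, D6 mice were non-diabetic homozygous knockouts, and FVB mice were non-diabetic with wild-type D6, with 3 mice in each group. The D6 protein, encoded by Ackr2, takes up and degrades inflammatory CC chemokines and does not signal as other chemokine receptors do. Diabetes came from the OVE26 transgene, which acts in the pancreatic beta cell. All 4 groups were on the FVB background, and the knockout allele, first made available on C57BL/6, had been bred to FVB for at least 10 generations, so the knockout groups can carry C57BL/6 sequence around Ackr2.

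Annexins bind negatively charged membrane phospholipids when calcium rises, and so link calcium signals to membrane repair, vesicle traffic and fibrinolysis at the cell surface. S100 proteins are small calcium sensors that work mostly as dimers and dock onto the variable amino-terminal tails of annexins, S100A10 on annexin A2 and S100A11 on annexin A1. In the kidney, annexins A1, A2 and A3 are known from injured tubules, infiltrating leukocytes and the glomerulus, whereas annexin A13, the founder of the vertebrate family, belongs to polarised epithelium of gut and kidney.

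The arrays were not equally typical of their groups, and both exceptions bear on the members. OVE replicate 3 scored 6.9 on the first principal component of all tested genes, which held 35.9% of the variance, whereas the other OVE arrays scored 27.0 and 29.4 and the remaining groups 5.2 at most. OVE-D6 replicate 3 had a mean log2 value of 8.85 over 4 adrenal cortex genes (Cyp11b1, Cyp11a1, Star and Cyp21a1), against 5.35 to 5.63 on the other 11 arrays. That array also had the highest OVE-D6 value of Lcn2, the tubular injury marker lipocalin, at 9.23, against 7.08 and 7.11. Where leaving out either array changed a call, the value without it is given with the results, as are some of the larger shifts. Kidney identity was clear, with proximal tubule markers at group means of 12.27 to 12.45. Ackr2 itself read 6.74 to 7.04 on all 12 arrays, with no call in any comparison, and where its probes lie relative to the deletion is not known here, so the genotype could not be checked from it. Precision was limited by having 3 arrays in each group. Each p-value sets a difference of group means against the spread between the sampled mice, estimated over all 4 groups.

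The S100 members form 2 neighbouring pairs on chromosome 3 (RefSeq coordinates, GRCm38.p6). S100a4 (chr3:90603770-90606045) and S100a6 (chr3:90612894-90614414) lie 6.8 kb apart, and S100a11 (chr3:93520496-93526288) and S100a10 (chr3:93555117-93564645) lie 28.8 kb apart. Anxa5 is also on chromosome 3 (chr3:36448923-36475887). Anxa1 lies at chr19:20373434-20390671, Anxa2 at chr9:69453683-69491792, Anxa3 at chr5:96793385-96845968, Anxa4 at chr6:86736840-86793634 and Anxa13 at chr15:58341464-58389274. Anxa2 shares chromosome 9 with Ackr2, the disrupted gene, at a distance of 52.4 Mb.

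Promoters are shown for Anxa1, Anxa2 and S100a6, which were higher in OVE than in FVB. That of S100a11 is added, since its estimate in that comparison was in the same direction. Each RefSeq sequence (GRCm38.p6, the C57BL/6J strain) runs 5′ to 3′ on the gene's own strand, from 250 bases before the start of the gene to 50 after it, with motif matches in capitals. The windows are chr19:20390622-20390921 on the minus strand for Anxa1, and on the plus strand chr9:69453433-69453732 for Anxa2, chr3:90612644-90612943 for S100a6 and chr3:93520246-93520545 for S100a11.
Anxa1: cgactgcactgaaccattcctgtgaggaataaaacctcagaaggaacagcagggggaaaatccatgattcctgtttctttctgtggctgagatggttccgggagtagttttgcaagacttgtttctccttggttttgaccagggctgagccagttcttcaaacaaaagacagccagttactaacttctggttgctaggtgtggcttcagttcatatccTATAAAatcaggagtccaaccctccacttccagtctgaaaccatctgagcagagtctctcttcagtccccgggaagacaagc
Anxa2: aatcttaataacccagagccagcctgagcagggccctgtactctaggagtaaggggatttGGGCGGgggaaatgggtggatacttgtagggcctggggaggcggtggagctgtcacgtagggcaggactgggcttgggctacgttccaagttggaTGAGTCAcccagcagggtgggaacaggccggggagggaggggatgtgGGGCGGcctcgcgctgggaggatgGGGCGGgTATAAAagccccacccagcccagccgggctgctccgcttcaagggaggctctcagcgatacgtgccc
S100a6: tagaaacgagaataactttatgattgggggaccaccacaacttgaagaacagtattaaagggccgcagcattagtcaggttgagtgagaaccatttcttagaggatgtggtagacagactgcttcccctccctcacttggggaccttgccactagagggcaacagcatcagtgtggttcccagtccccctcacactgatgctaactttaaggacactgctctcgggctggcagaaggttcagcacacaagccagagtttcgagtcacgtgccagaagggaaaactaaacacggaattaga
S100a11: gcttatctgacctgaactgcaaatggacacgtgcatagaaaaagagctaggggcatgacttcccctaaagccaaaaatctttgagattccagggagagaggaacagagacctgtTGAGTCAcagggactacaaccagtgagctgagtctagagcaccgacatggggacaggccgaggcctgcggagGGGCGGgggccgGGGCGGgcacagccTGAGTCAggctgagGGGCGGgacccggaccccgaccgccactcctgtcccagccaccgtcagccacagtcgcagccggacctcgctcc
The letters searched on both strands were TGANTCA, the AP-1 type element, which reads the same on both strands, TATAAA and GGGCGG, and no match overlapped another. TGANTCA stood at -95 in the Anxa2 window and at -136 and -38 in that of S100a11, counted to the first base of the match from the start of the gene as 0. It was found in 2 of 8 windows of the 7 members with an entry and in 7.81% of all 32851 windows. TATAAA stood at -32 in Anxa1, at -17 in Anxa2 and at -31 in S100a4, in 3 of 8 member windows against 13.6% of all windows. GGGCGG stood 3 times each in the Anxa2 and S100a11 windows, and was in 3 of 8 member windows against 35.7% of all. The S100a6 window held none of the 3, so no motif was common to the windows of Anxa1, Anxa2 and S100a6. Those of Anxa1 and Anxa2 both held TATAAA. A match is a description of letters and not a binding site.

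The first comparison asks what diabetes did to the family with D6 intact. Of the 10 members, 4 were higher in OVE than in FVB (Anxa1, Anxa2, Anxa3 and S100a6), 1 was lower (Anxa13) and 5 did not pass. The test was limma across all 16480 genes, at a Benjamini-Hochberg adjusted p of 0.05, where 7.28% of all genes were called, 4.9% higher and 2.38% lower. At an unadjusted p under 0.05 there were 8 members and 24.1% of all genes. The median log2 difference of the members was 0.47, against -0.018 for all genes tested. The OVE and FVB arrays did not overlap for 9 of the 10 members, 8 higher and 1 lower, and for 27.1% of all genes (13.6% higher and 13.5% lower). Since the members were chosen with earlier results of these data known, their counts and medians are descriptions and not a test against all genes. In whole tissue, a change in the number of cells of a type and a change of RNA per cell cannot be told apart.

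**Figure D1:**
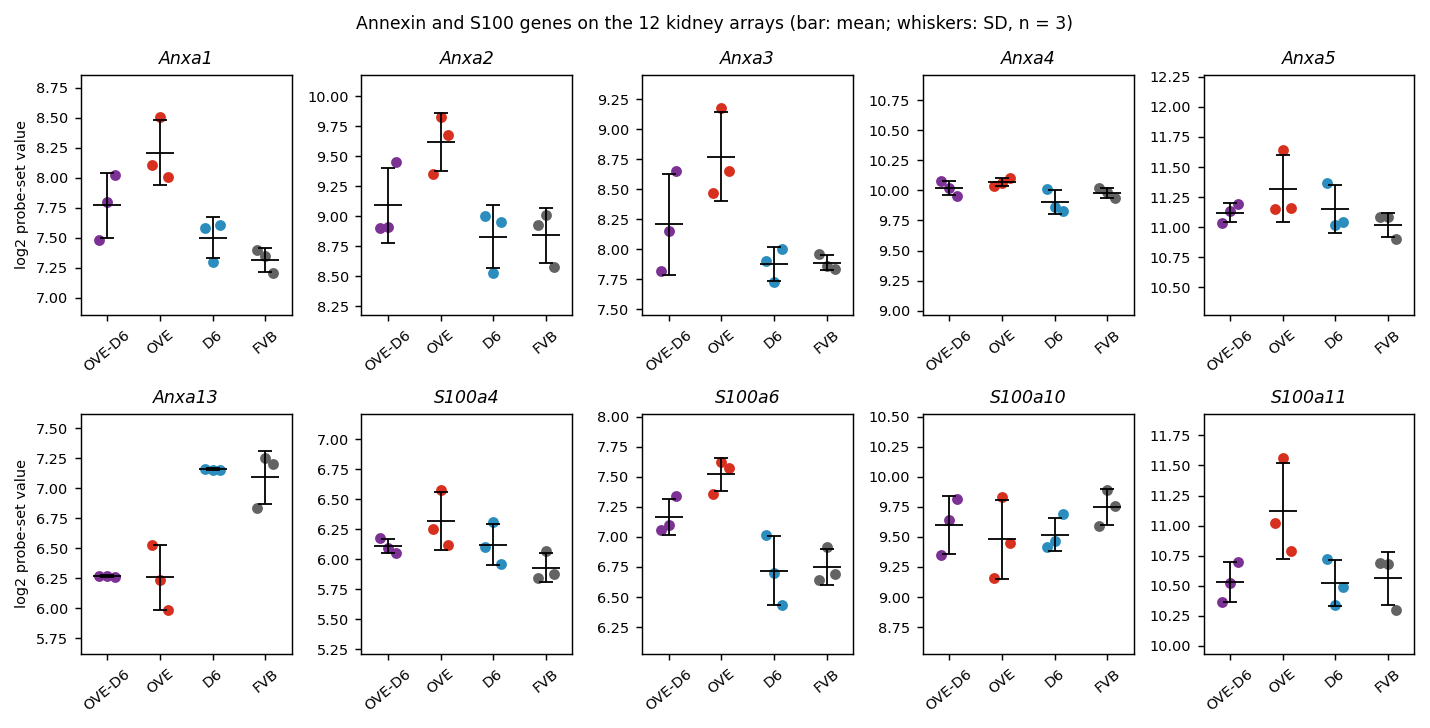
Log2 probe-set values (y axis) of the 10 members on each array, by group (x axis: OVE-D6, OVE, D6 and FVB). Points are mice, bars are means and whiskers are SD (n = 3), and every panel spans 2 log2 units. OVE points lie above FVB points for 8 genes, while Anxa13 is low in both diabetic groups.

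Among the annexins, Anxa1, whose protein restrains inflammation through formyl peptide receptors, had the largest estimate. It read 8.11, 8.51 and 8.01 on the OVE arrays, against 7.40, 7.35 and 7.21 on the FVB arrays. The groups were well apart, and the difference was 0.89 ± 0.15 on the log2 scale (SE, n = 3 per group), a 1.86-fold rise (limma adjusted p = 0.00705). Anxa3 read 8.47, 9.18 and 8.65 in OVE, against 7.96, 7.86 and 7.84 in FVB. Its OVE arrays spread widely around a 1.84-fold rise (log2 0.88 ± 0.20, adjusted p = 0.0218 by limma). Anxa2, which assembles plasminogen activation at the cell surface, read 9.35, 9.83 and 9.68 in OVE, against 8.93, 9.01 and 8.58 in FVB. That gene was 1.72-fold higher (log2 0.78 ± 0.18, adjusted p = 0.0241), again with no overlap of the groups.

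In OVE against FVB, the calls of Anxa2 and Anxa3 were lost in some fits with 1 mouse left out. Those of Anxa1, S100a6 and Anxa13 held without any 1 of the 12. By limma, Anxa2 no longer passed without FVB replicate 1, FVB replicate 3 or OVE replicate 2 (adjusted p = 0.0506, 0.0964 and 0.0971). Anxa3 no longer passed without OVE replicate 2 (adjusted p = 0.0837) or without FVB replicate 1, 2 or 3 (adjusted p = 0.0506, 0.0683 and 0.0725). Without FVB replicate 1 the log2 differences were 0.83 for Anxa2 and 0.92 for Anxa3, against 0.78 and 0.88 with all arrays. Without FVB replicates 2 and 3, Anxa3 was at 0.87 and 0.86. Smaller values came without OVE replicate 2, at 0.68 for Anxa2 and 0.67 for Anxa3, and without FVB replicate 3 for Anxa2, at 0.65. With any 1 array left out, the differences stayed between 0.65 and 0.91 for Anxa2 and between 0.67 and 1.03 for Anxa3. The count of members called was 3 without FVB replicate 1, FVB replicate 3 or OVE replicate 2. It was 7 without OVE replicate 3, where S100a4 (adjusted p = 0.028) and S100a11 (adjusted p = 0.0221) were added. The count over all genes tested moved as well, from 1200 with all arrays to 671, 427 and 359 in the same order. Without OVE replicate 3 it was 1901, so these shifts are not shown to be particular to the members.

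Anxa4 and Anxa5 did not pass. Anxa5, known as a phosphatidylserine probe for dying cells, read 11.15, 11.64 and 11.16 in OVE, against 11.08, 11.08 and 10.90 in FVB. Its OVE arrays lay above the FVB arrays, OVE replicates 1 and 3 only just, and the estimate of 0.30 (95% interval 0.01 to 0.58) did not pass over all genes (limma adjusted p = 0.199), and was 0.13 without OVE replicate 2. Anxa4, an annexin of secretory and absorptive epithelia, was the steadiest member, between 9.83 and 10.10 on all 12 arrays. It differed by 0.09 between OVE and FVB, with a 95% interval of -0.07 to 0.24.

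Of the S100 genes, S100a6 (calcyclin, a partner of annexin A2 known from proliferating cells) was the 1 that passed. It read 7.36, 7.62 and 7.57 in OVE, against 6.64, 6.92 and 6.69 in FVB, a 1.70-fold rise (log2 0.77 ± 0.14, limma adjusted p = 0.00938). S100a11, the partner of annexin A1, read 11.02, 11.56 and 10.79 in OVE, against 10.69, 10.68 and 10.30 in FVB. These groups met closely, with the lowest OVE array just above the highest FVB array, and the difference of 0.56 ± 0.18 did not pass (adjusted p = 0.0778). One mouse weighed on it in each direction, with 0.34 without OVE replicate 2 (adjusted p = 0.243) and 0.73 without OVE replicate 3 (adjusted p = 0.0221). A second, dimmer probe set of S100a11 gave 0.66 for the same difference. S100a4, a gene of fibroblasts and macrophages, read 6.25, 6.58 and 6.12 in OVE, against 5.84, 6.07 and 5.88 in FVB (log2 0.38 ± 0.12, adjusted p = 0.0753). Without OVE replicate 2 its difference was 0.25 (adjusted p = 0.241). Its FVB mean of 5.93 equalled the 95th percentile of the means of 1015 olfactory receptor genes, taken here as background, so its fold change may be understated.

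Markers of other cells also differed between OVE and FVB. Of 10 macrophage and monocyte markers, 9 were higher in OVE than in FVB, and the mean of the list lay at 8.15 to 9.19 on the OVE arrays, against 7.33 to 7.66 on the FVB arrays. On the OVE-D6 arrays that mean was 7.61 to 7.85, against 7.71 to 7.95 on the D6 arrays. The median log2 difference of the list was -0.11 in OVE-D6 against D6, where that of the members was 0.1. In D6 against FVB the list median was 0.36, where that of the members was -0.01. Of 8 fibroblast and pericyte markers, 4 were higher in OVE than in FVB, with list means of 9.45 to 10.00 in OVE, against 8.76 to 9.15 in FVB. The fibroblast means were 9.08 to 9.48 in OVE-D6 and 8.88 to 9.11 in D6. No marker of either list had a mean below the olfactory receptor level. Of 6 neutrophil genes, 5 did (S100a8, S100a9, Ly6g, Elane and Mpo), and their list mean stayed between 5.24 and 5.47 on all arrays. Of 5 tested T lymphocyte markers 1 was higher in OVE than in FVB, with list means of 5.92 to 6.40 in OVE, against 5.89 to 5.93 in FVB.

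Markers of tubular injury and of resident kidney cells were set beside them. The tubular injury genes Lcn2 and Havcr1 were 13.6-fold and 4.71-fold higher in OVE than in FVB (limma adjusted p = 0.00341 and 0.00499). In OVE-D6 against OVE their log2 differences were -2.70 and -1.66, with no overlap of the groups, and did not pass (adjusted p = 0.071 and 0.079). Podocyte markers had list means of 8.26 to 8.42 in OVE, against 8.47 to 8.62 in FVB, with 1 of 4 tested genes lower. The podocyte means were 8.41 to 8.66 in OVE-D6, against 8.60 to 8.75 in D6. Of 6 proximal tubule markers 1 was lower in OVE than in FVB, with list means of 12.18 to 12.39 in OVE, against 12.39 to 12.45 in FVB. The part of macrophages, fibroblasts, tubular injury or podocytes in the rise of Anxa1, Anxa2, Anxa3 and S100a6 was not tested.

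Anxa13 fell with diabetes in both genotypes, the 1 member called in mice without D6. It read 6.27, 6.27 and 6.26 on the OVE-D6 arrays, against 7.16, 7.15 and 7.15 on the D6 arrays. These replicates were almost identical within each group, and the log2 difference of -0.89 ± 0.13 (SE) made OVE-D6 1.85-fold lower (limma adjusted p = 0.0142). Wild-type kidneys varied more, with 6.53, 6.24 and 5.99 in OVE, against 6.84, 7.25 and 7.20 in FVB, and Anxa13 was 1.79-fold lower (log2 -0.84 ± 0.13, adjusted p = 0.00463). No diabetic array reached the lowest non-diabetic one. The means of 6.27 in OVE-D6 and 6.26 in OVE were not far above the olfactory receptor level of 5.93. Both falls may therefore be understated, which also limits how well they can be compared. The 2 effects differed by -0.05 (95% interval -0.45 to 0.35, interaction adjusted p = 0.959), and OVE-D6 differed from OVE by 0.01 (95% interval -0.27 to 0.29). In OVE-D6 against D6, leaving out any 1 of the 6 mice took the adjusted p to between 0.0548 and 0.0739 while the difference stayed at -0.89.

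Anxa13 belongs to tubular epithelium, so the segment markers were set beside it. The 6 loop of Henle and distal tubule markers had list means of 11.83 to 11.93 in OVE-D6 and 11.60 to 11.84 in OVE, against 11.89 to 11.92 in D6 and 11.79 to 11.99 in FVB. Collecting duct markers lay at 9.81 to 9.87 in OVE-D6 and 9.75 to 9.90 in OVE, against 9.78 to 9.91 in D6 and 9.73 to 9.95 in FVB. In OVE-D6 against D6, none of the 6 markers of either list passed limma (0 of 6 in each at an unadjusted p under 0.05), with list medians of -0.01 for loop and distal markers and 0.04 for collecting duct markers on the log2 scale. In OVE against FVB, 1 of 6 loop and distal markers and 0 of 6 collecting duct markers were called, the 1 lower, and 2 and 1 had an unadjusted p under 0.05. The collecting duct estimates ran from -0.59 to 0.33 there, 3 positive and 3 negative, so their list mean hides opposite estimates. In OVE-D6 against D6 they ran from -0.28 to 0.08. The part of segment composition in the fall of Anxa13 was not tested.

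**Figure D2:**
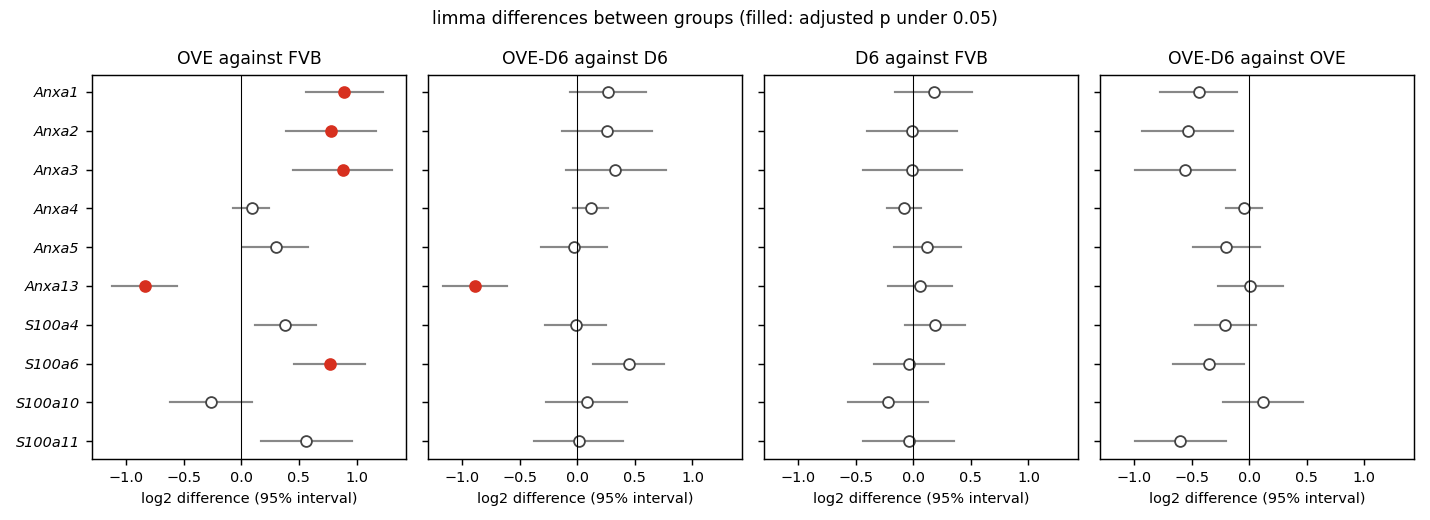
Log2 differences (x axis) of each member (y axis) in 4 comparisons, with 95% intervals from limma and filled points at an adjusted p under 0.05. Anxa13 is filled in both diabetes comparisons, and no member is filled in the 2 comparisons of D6 loss.

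S100a10 did not follow its partner Anxa2. S100A10 (p11) is the S100 protein that joins annexin A2 in a stable complex and, unlike its relatives, does not bind calcium. It read 9.16, 9.83 and 9.45 in OVE, against 9.59, 9.89 and 9.76 in FVB. The groups overlapped, and the difference was -0.26 (95% interval -0.62 to 0.09, limma adjusted p = 0.345). In the same comparison the interval was 0.39 to 1.17 for Anxa2, and 0.17 to 0.96 for S100a11, the neighbour of S100a10 at 28.8 kb. These genes were set side by side after their values were seen, so the intervals are a description and no test between genes.

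The 2 partners were also set against each other within each array. Only differences between groups can be read from such a value, since 2 probe sets have no common scale. Anxa2 minus S100a10 was 0.19, 0.00 and 0.22 on the OVE arrays, against -0.65, -0.88 and -1.18 on the FVB arrays, a difference of 1.05 log2 units with no overlap. It was -0.45, -0.72 and -0.38 on the OVE-D6 arrays, against -0.41, -0.94 and -0.74 on the D6 arrays, where the groups overlapped and differed by 0.18. OVE-D6 differed from OVE by -0.66, with no overlap. S100a11 minus S100a10 behaved likewise, at 1.64 ± 0.27 in OVE, against 0.82 ± 0.28 in FVB (SD, n = 3), and at 0.93 ± 0.07 in OVE-D6, against 0.99 ± 0.27 in D6. Both pairs were chosen after their values were seen, so these differences are a description with no test.

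**Figure D3:**
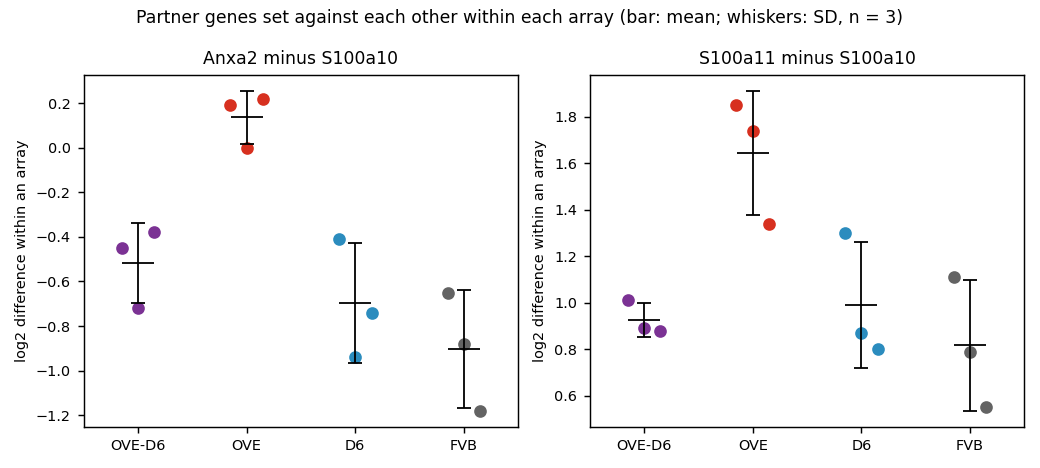
Difference of log2 values within an array (y axis) for Anxa2 minus S100a10 (left) and S100a11 minus S100a10 (right), by group (x axis), with mean and SD (n = 3). The OVE arrays lie above all other arrays in both panels.

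The same question was put to mice without D6. In OVE-D6 against D6, 0 of 10 members were called higher and 1 lower (Anxa13), and the percentages over all genes were 0.285% in all, 0.182% higher and 0.103% lower. At an unadjusted p under 0.05 there were 2 members, Anxa13 and S100a6, and 9.98% of all genes. S100a6 read 7.06, 7.10 and 7.34 in OVE-D6, against 7.02, 6.70 and 6.43 in D6. Those arrays did not overlap, which held for 2 of 10 members and 16.4% of all genes, and the difference of 0.45 (95% interval 0.14 to 0.75) did not pass over all genes (limma adjusted p = 0.264). Anxa1 read 7.48, 7.80 and 8.02 in OVE-D6, against 7.58, 7.30 and 7.61 in D6, with an estimate of 0.27 (95% interval -0.06 to 0.60). Anxa2 had an estimate of 0.26 and Anxa3 of 0.33, with overlapping groups in both cases. OVE-D6 replicate 3, the array with adrenal genes, was the highest of its group for these 4 genes. Without it the estimates were 0.36 for S100a6, 0.15 for Anxa1, 0.08 for Anxa2 and 0.11 for Anxa3. Over all 12 arrays left out in turn, they ranged from 0.31 to 0.6 for S100a6, 0.15 to 0.42 for Anxa1, 0.08 to 0.35 for Anxa2 and 0.11 to 0.53 for Anxa3. None of these genes passed in any of these fits. The same array was also the highest of its group for Lcn2 (9.23), for Havcr1 (8.85, against 7.54 and 7.79) and for the fibroblast and pericyte list mean (9.48, against 9.10 and 9.08). The part of adrenal tissue, tubular injury or fibroblasts in its values was not tested. Anxa4, Anxa5, S100a4, S100a10 and S100a11 had estimates between -0.03 and 0.12.

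Set against diabetic mice with intact D6, the diabetic knockouts had lower estimates for 8 of 10 members, none of which passed. The test called 0 members in OVE-D6 against OVE, where 0.231% of all genes were called, while 5 members (Anxa1, Anxa2, Anxa3, S100a6 and S100a11) and 14.8% of all genes had an unadjusted limma p under 0.05. The members' median was -0.28, against 0.01 over all genes. S100a11 had the largest estimate, with 10.36, 10.52 and 10.70 in OVE-D6, against 11.02, 11.56 and 10.79 in OVE. The groups did not overlap, and the difference was -0.60 ± 0.18 (SE, n = 3 per group, adjusted p = 0.168). S100a6, with 7.06, 7.10 and 7.34 in OVE-D6, against 7.36, 7.62 and 7.57 in OVE, was the other member without overlap (log2 -0.35, 95% interval -0.66 to -0.05). Groups that did not overlap were found for 2 of 10 members, both lower, against 17.6% of all genes (8.24% lower).

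Anxa1, Anxa2 and Anxa3 overlapped between the diabetic groups. Anxa2 read 8.90, 8.91 and 9.45 in OVE-D6, against 9.35, 9.83 and 9.68 in OVE, with a difference of -0.53 (95% interval -0.93 to -0.14, limma adjusted p = 0.211). Anxa3 read 7.82, 8.15 and 8.65 in OVE-D6, against 8.47, 9.18 and 8.65 in OVE (log2 -0.56, 95% interval -0.99 to -0.12). For Anxa1 the difference was -0.44 (95% interval -0.78 to -0.11). In each case OVE-D6 replicate 3 was the array that reached the OVE range. Without that array the differences were -0.57 for Anxa1, -0.71 for Anxa2 and -0.78 for Anxa3, and none passed (adjusted p = 0.171, 0.143 and 0.123). They were smaller without OVE replicate 2, at -0.29, -0.43 and -0.35, and without OVE-D6 replicate 1, at -0.30, -0.44 and -0.36. S100a11 depended on which OVE array was left out, with -0.38 without OVE replicate 2 (adjusted p = 0.461) and a call without OVE replicate 3 (log2 -0.76, adjusted p = 0.0353). It was -0.68 without OVE-D6 replicate 3 (adjusted p = 0.2). S100a6 ranged from -0.44 to -0.30 over the arrays left out. Without OVE replicate 3, Anxa1, Anxa2 and Anxa3 did not pass (adjusted p = 0.094, 0.216 and 0.167).

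The remaining members had intervals that include 0 in OVE-D6 against OVE, with estimates of -0.20 for Anxa5, -0.21 for S100a4, -0.05 for Anxa4, 0.01 for Anxa13 and 0.12 for S100a10. Markers of other cells moved in the same comparison. Of 10 macrophage and monocyte markers, 3 were lower in OVE-D6 than in OVE (limma), and the list means did not overlap, at 7.61 to 7.85 in OVE-D6, against 8.15 to 9.19 in OVE. Of 8 fibroblast and pericyte markers none passed and 7 had an unadjusted limma p under 0.05, with a list median of -0.52. Their part in the members' values was not tested.

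Loss of D6 without diabetes showed no called change in the family. In D6 against FVB limma called 0 of 10 members and 0.0121% of all genes, and 0 members and 3.82% of all genes had an unadjusted p under 0.05. Estimates lay between -0.22 for S100a10 and 0.19 for S100a4, and the groups overlapped for all 10 members and did not for 9.79% of all genes. S100a10 read 9.42, 9.47 and 9.69 in D6, against 9.59, 9.89 and 9.76 in FVB, with a 95% interval of -0.57 to 0.13. Anxa2, on the chromosome of the disrupted gene, read 9.0, 8.53 and 8.95 in D6, against 8.93, 9.01 and 8.58 in FVB, with an interval of -0.40 to 0.38. With 3 mice a group, true differences of any size inside these intervals remain possible.

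Whether the diabetes effect differed between genotypes was tested with the interaction, the OVE-D6 against D6 difference less the OVE against FVB one. No member passed (0 of 10, and 0 of all genes, 0%), with 2 members and 9.99% of all genes at an unadjusted limma p under 0.05. Anxa1 had an estimate of -0.62 (95% interval -1.09 to -0.15, adjusted p = 0.377) and S100a4 one of -0.40 (95% interval -0.77 to -0.02, adjusted p = 0.466). Estimates for Anxa2, Anxa3 and S100a11 were -0.52, -0.55 and -0.55, with adjusted p-values of 0.536, 0.566 and 0.504. Without OVE-D6 replicate 3 these estimates were -0.7, -0.77 and -0.64, and without OVE replicate 3 they were -0.49, -0.61 and -0.72. They were smaller without OVE replicate 2, at -0.42, -0.34 and -0.33. With 1 array left out, Anxa1 ranged from -0.75 to -0.47 and S100a4 from -0.5 to -0.27, and no member passed. For Anxa1 the estimate was -0.72 without OVE replicate 3 (adjusted p = 0.141), -0.75 without OVE-D6 replicate 3 (adjusted p = 0.268) and -0.47 without OVE replicate 2 (adjusted p = 0.643). The rise of Anxa1, Anxa2, Anxa3 and S100a6 in OVE, called in wild types and not in OVE-D6 against D6, was thus not shown to differ between the genotypes. OVE, OVE-D6, D6 and FVB each enter several of these comparisons, so the estimates are not independent of each other.

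Within groups, the order of the arrays was counted over the members. No such count was made over all genes, so the order is not shown to be particular to the members. OVE replicate 2 was the highest OVE array for 8 of 10 members and the highest of all 12 arrays for 7. Of all 12 arrays it also scored highest (29.4) on the first principal component of all tested genes. OVE-D6 replicate 3 led its group for 7 members and OVE-D6 replicate 1 was lowest for 7. Among non-diabetic mice, D6 replicate 1 was highest for 6 members and D6 replicate 2 lowest for 6, while FVB replicate 2 was highest for 6 and FVB replicate 3 lowest for 6. Anxa4 was highest in OVE on replicate 3 and in OVE-D6 on replicate 1, and Anxa13 was highest in OVE on replicate 1. S100a10 and Anxa13 had their highest value of all 12 arrays on FVB replicate 2.

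**Figure D4:**
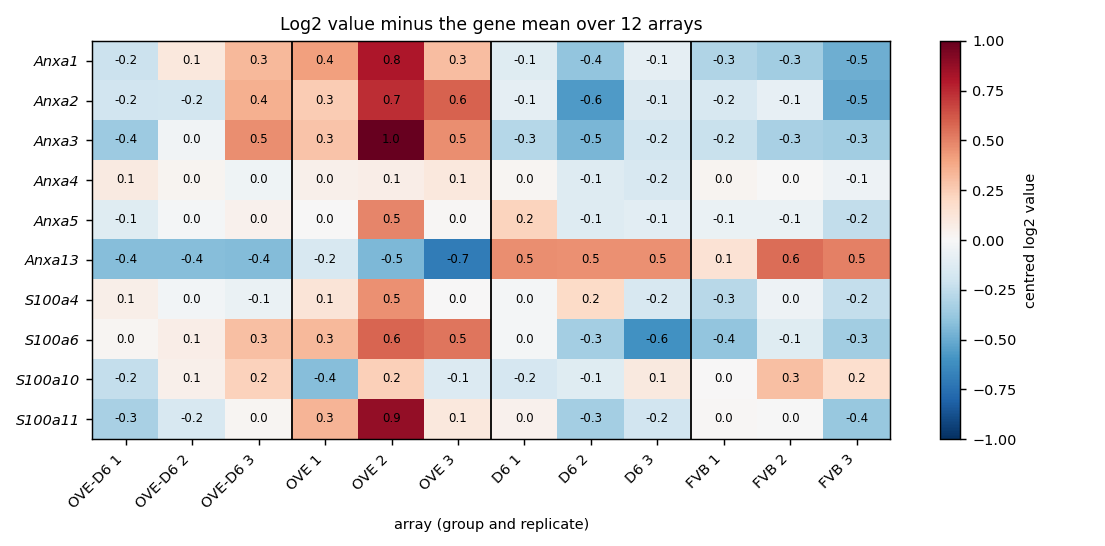
Log2 value of each member (rows) minus its mean over the 12 arrays, for each array (columns, by group and replicate), with the value written in each cell and coloured from -1 to 1. OVE replicate 2 is the reddest column, and the Anxa13 row is blue on all 6 diabetic arrays and red on all 6 non-diabetic arrays.

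The genes most like a member were ranked by the mean absolute difference of centred log2 values over the 12 arrays, among 16479 genes. Nearest to Anxa2 were Pvr, an adhesion receptor (0.101), Plaur, the urokinase receptor (0.12), Samd4 (0.122), Dcdc2a (0.124) and Anxa1 (0.126). Anxa3 ranked 13, S100a6 49 and S100a11 52, whereas S100a10 ranked 10623. Plaur read 7.46, 7.51 and 7.26 in OVE, against 6.73, 6.66 and 6.52 in FVB, with no overlap. Nearest to Anxa13 were Casr, the calcium-sensing receptor (0.139), Akr1c20, an aldo-keto reductase gene (0.153), D7Ertd443e (0.155), Mdk, the growth factor midkine (0.157), and Slc26a4, the anion exchanger pendrin of intercalated cells (0.163). Casr read 9.39, 9.58 and 9.33 in OVE-D6 and 9.57, 9.31 and 9.45 in OVE, against 10.37, 10.31 and 10.24 in D6 and 10.42, 10.27 and 10.26 in FVB. As with Anxa13, the diabetic arrays all lay below the non-diabetic ones. Plaur and Casr were picked here for their likeness on these same arrays, so their separation of the groups follows from that choice.

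The relatives of the members were counted from lists of the same families and pathways. In OVE against FVB, 7.28% of all genes were called (4.9% higher). These lists too were chosen with earlier results of these data known, so the counts are no test of enrichment. Of 5 other annexins tested, none passed limma in OVE against FVB, and 1 had an unadjusted p under 0.05, Anxa7 (log2 0.17 ± 0.07, adjusted p = 0.165). Anxa6 and Anxa11 had estimates of 0.04 and -0.07. Of 7 other S100 genes tested, 1 rose, S100g, which encodes the calcium buffer calbindin-D9k of the distal tubule. S100g read 10.50, 10.22 and 10.38 in OVE, against 9.73, 9.73 and 10.22 in FVB (log2 0.47 ± 0.13, limma adjusted p = 0.0494). In non-diabetic knockouts it read 10.41, 10.58 and 10.36 in D6, with a difference from FVB of 0.56 that did not pass (adjusted p = 1), so FVB was the low group. S100a1, the S100 gene of muscle and kidney, lay at group means of 12.34 to 12.40, and S100a13 and S100a16 differed by -0.09 and -0.02 between OVE and FVB. S100a8, a subunit of neutrophil calprotectin, was too dim to be tested, and S100a9 averaged 5.29 in OVE, against 5.43 in FVB.

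Among 11 tested partners and receptors, 2 rose in OVE against FVB, where 4.9% of all genes did. Trpv6, an epithelial calcium channel brought to the membrane by the annexin A2 and S100A10 complex, read 7.10, 7.18 and 7.09 in OVE, against 6.67, 6.55 and 6.81 in FVB (log2 0.45 ± 0.12, limma adjusted p = 0.0367). Tlr4, the endotoxin receptor that S100A8 and S100A9 also engage, had a difference of 0.58 ± 0.16 (adjusted p = 0.0467). Pla2g4a, the cytosolic phospholipase that annexin A1 can restrain, had an estimate of 0.41 that did not pass (adjusted p = 0.085), and Ahnak, a scaffold bound by the annexin A2 and S100A10 complex, one of 0.14. Ager, the receptor RAGE, differed by -0.09. In the plasmin system, 1 of 6 tested genes rose against the same 4.9%, Plaur (log2 0.78 ± 0.14, adjusted p = 0.00888). Plat, the tissue plasminogen activator gene, differed by 0.10, and Plau, that of urokinase, by -0.32 (adjusted p = 0.101).

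None of these 29 related genes passed in OVE-D6 against D6, in OVE-D6 against OVE, in D6 against FVB or in the interaction by limma. At an unadjusted p under 0.05 there were 2 in OVE-D6 against D6 (Trpv6 and Plaur), where 9.98% of all genes reached it, and 7 in OVE-D6 against OVE, where 14.8% did. There was 1 in D6 against FVB, S100g, against 3.82% of all genes, and there were 2 in the interaction, Myh9 and S100g, against 9.99%. In OVE-D6 against OVE, Plaur differed by -0.44 (95% interval -0.75 to -0.14), with 6.94, 6.71 and 7.25 in OVE-D6, against 7.46, 7.51 and 7.26 in OVE. Trpv6 differed by -0.04 in that comparison.

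**Figure D5:**
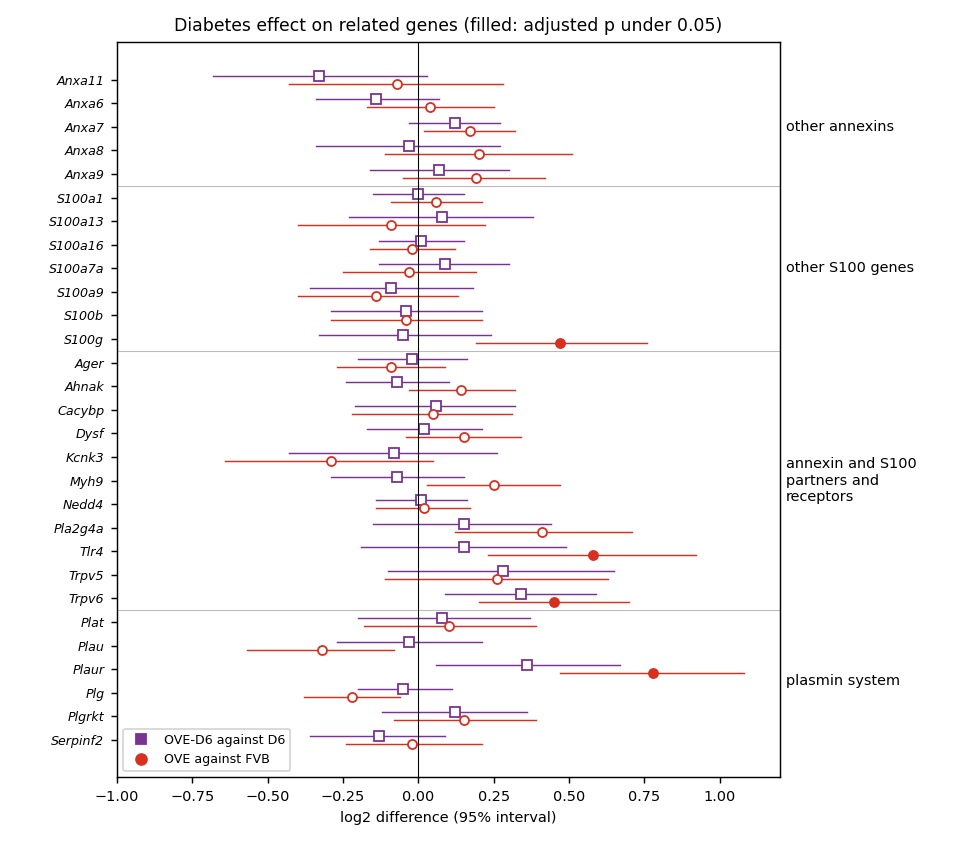
Log2 differences (x axis, with 95% intervals from limma) for 29 related genes (y axis) in OVE-D6 against D6 (squares) and OVE against FVB (circles), filled at an adjusted p under 0.05. The filled circles are S100g, Tlr4, Trpv6 and Plaur, and no square is filled.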

How the data were processed

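RNA from 12 frozen mouse kidneys (100 ng each, RNA integrity number above 8.8) was hybridised to Affymetrix mouse gene arrays, per the labels' protocols. The deposited values are log2 signals per probe set, already normalized by the authors, with array medians of 6.84 to 6.93; the summarisation method is not given in the sources used here. Of 35556 probe sets, 21789 carried 1 gene symbol, 1621 several and 12146 were unnamed here. The highest-mean probe set stood for each of 19936 genes, and 16480 genes above their array's 25th percentile on at least 3 arrays were tested.

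One model with a mean per group was fitted to all 12 arrays in limma 3.58.1 (R 4.3.3), with Benjamini-Hochberg adjustment over all genes tested. It was tested on simulated data with known changes. A call is an adjusted p under 0.05. All 10 members are named whether or not they pass, as are related genes past the threshold, chosen examples of the lists, and the 5 genes nearest to Anxa2 and to Anxa13. Members and lists were chosen with earlier results of these data known. Within-array differences, promoter searches and figures used Python 3.11.15 with scipy 1.17.1 and matplotlib 3.10.9. Alternatives changed the filter, normalization, probe set, variance model, arrays fitted, replicate block and arrays left out.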

Additional observations from a re-analysis of the deposited data

Results flagged for a closer look

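S100a4 and Anxa5 had differences of opposite sign with the loss of D6 in diabetic and in non-diabetic mice. Every OVE-D6 array lay below the OVE mean and every D6 array lay above the FVB mean, D6 replicate 2 only just for Anxa5. The difference of the 2 effects was -0.40 for S100a4 (limma unadjusted p = 0.0384, adjusted p = 0.466) and -0.32 for Anxa5 (unadjusted p = 0.112, adjusted p = 0.621). S100a4 read 6.18, 6.09 and 6.05 in OVE-D6, against 6.25, 6.58 and 6.12 in OVE, and 6.10, 6.31 and 5.96 in D6, against 5.84, 6.07 and 5.88 in FVB. Anxa5 read 11.03, 11.13 and 11.19 in OVE-D6, against 11.15, 11.64 and 11.16 in OVE, and 11.37, 11.02 and 11.04 in D6, against 11.08, 11.08 and 10.90 in FVB. The OVE-D6 and OVE arrays overlapped for both genes, as did the D6 and FVB arrays, so with these mice neither difference passed. Anxa1 and S100a10 also had estimates of opposite sign, -0.44 in OVE-D6 against OVE and 0.18 in D6 against FVB for Anxa1, and 0.12 and -0.22 for S100a10 in the same comparisons, but not on every array. Their interaction estimates were -0.62 and 0.34 (adjusted p = 0.377 and 0.675).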

How the results depend on the processing

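The comparisons of 2 groups were recomputed under 20 alternatives and the interaction, which uses all 4 groups, under 19; S100a4 had 1 fewer, since the stricter filter on dim genes removed it. In OVE against FVB, Anxa1, Anxa13 and S100a6 passed under all of them. The number of members called ranged from 3 to 7 when 1 mouse was left out, and that of all genes from 359 to 1901, against 5 and 1200; fitting only the 2 groups gave 440 genes. In OVE-D6 against OVE, leaving out 1 mouse gave 0 to 1 members and 1 to 668 genes, against 0 and 38; array quality weights gave 91 genes, the replicate block 7 and the 2 groups alone 0. In D6 against FVB, leaving out 1 mouse gave 0 members each time and 2 to 3 genes, against 0 and 2; array weights gave 4 and the 2 groups alone 1. In OVE-D6 against D6, leaving out 1 mouse gave 0 to 1 members and 17 to 74 genes, against 1 and 47; an intensity trend with robust prior gave 76, array weights 87 and the replicate block 29. For the interaction, leaving out 1 mouse gave 0 members each time and 0 to 377 genes, against 0 and 0. The causes were not tested.

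Direction changed in 27 member values, none of them called and none beyond 0.14 in size. In OVE-D6 against OVE, Anxa13 gave -0.00329 with quantile normalization and -0.02 with array weights, and in OVE-D6 against D6, S100a11 gave -0.01 with its other probe set. The rest came from leaving out 1 mouse. In OVE-D6 against OVE, the range was then -0.12 to 0.15 for Anxa13 and -0.04 to 0.3 for S100a10. In D6 against FVB it was -0.14 to 0.14 for Anxa2, -0.07 to 0.06 for Anxa3, -0.07 to 0.14 for Anxa13, -0.19 to 0.11 for S100a6 and -0.17 to 0.04 for S100a11. In OVE-D6 against D6 it was -0.09 to 0.08 for Anxa5, -0.09 to 0.08 for S100a4, -0.03 to 0.2 for S100a10 and -0.08 to 0.11 for S100a11. In the interaction it was -0.00374 to 0.09 for Anxa4 and -0.18 to 0.09 for Anxa13.

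No pairing of mice by replicate number was seen: 2 of 18 same-number pairs correlated above 0.1 (r -0.25 to 0.12). With 3 arrays a group, such correlations cannot exclude that the mice were paired. With the replicate block, 6 members were called in OVE against FVB, S100a4 being added (adjusted p = 0.0388 by limma), and no other member's call changed. Over all genes tested, 971 were called there with the block, against 1200 without it. S100a4 lay near the background level, which limits what its values show. With 3 mice a group, several intervals of members that did not pass are wide.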
